A study of Caenorhabditis elegans with 9 samples.

Results

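The insulin-like peptide genes of C. elegans were taken as every gene named ins with a number, and daf-28, that has a probeset assigned to it alone on the Affymetrix C. elegans array. The current RefSeq annotation holds 40 genes with such names, of which 24 had a probeset of their own and are described here, among 17118 genes measured in all. The other 16 genes (ins-8, ins-9, ins-10, ins-12, ins-13, ins-14, ins-15, ins-16, ins-19, ins-20, ins-25, ins-27, ins-28, ins-29, ins-36 and the pseudogene ins-38) were not analysed here. RNA came from whole wild type worms of the N2 strain, 3 samples from worms kept in 0.03% (w/v) sodium arsenite (high dose), 3 from 0.003% (low dose) and 3 from unexposed control worms. Exposed worms spent 6 h at 22 °C in CeHM, a liquid medium without bacteria. The labels put the worms at L3, while the methods and results of the study name other larval stages. In whole worms, fewer cells of a type and less RNA per cell cannot be told apart.

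Insulin-like peptides are small secreted hormones that neurons, intestine and other tissues release. They bind the receptor DAF-2, which through the kinases AGE-1, PDK-1 and AKT keeps the FOXO transcription factor DAF-16 out of the nucleus. Agonists of the receptor favour growth and reproduction, and antagonists favour dauer formation, stress resistance and long life. The family is large in this worm, and many of its members lie next to each other on the chromosomes.

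Values are the log2 signals deposited by the authors, 1 per probeset and array. The median of each array was between 8.42 and 8.52. Within groups the correlation of arrays across genes was 0.940 to 0.952, genes not being independent replicates. Levels of different probesets are not comparable as amounts of RNA, so no gene's amount is set against another's. Genes named dim or bright, and summed marker signals, refer to signal only. Limma was fitted over all 17118 genes, and a gene passed the test when it changed 1.2 fold or more with an adjusted p no higher than 0.05. The labels call the 3 samples of a group biological replicates and the methods name an RNA isolation for each, without saying whether the worms were cultured separately. Each p-value rests on the spread of these isolations, which may in part be technical. The precision is limited by the number of arrays.

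At the high dose, ins-11 and ins-4 rose while ins-33, ins-35 and ins-5 fell, and the other 19 insulin-like genes did not pass the test. The 5 genes make up 20.8% of the 24 members, against 20.0% of all genes tested, so the count is close to the background. Up regulation was called for 2 members (8.33%, against 9.0% of all genes) and down regulation for 3 (12.5%, against 11%). Without high dose replicate 3, 2 members were up and 5 down, the added ones being ins-32 and ins-34, and 15.8% of all genes were called. The median log2 fold change of the members was -0.21, against -0.05 over all genes. At the low dose 0 of the 24 members passed the test in limma, where 1.55% of all genes did (1.05% up and 0.508% down). An unadjusted p under 0.05 was found for 8 members at the high dose (33.3%, against 31.5% of all genes) and for 2 at the low dose (8.33%, against 11.7%).

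**Figure D1:**
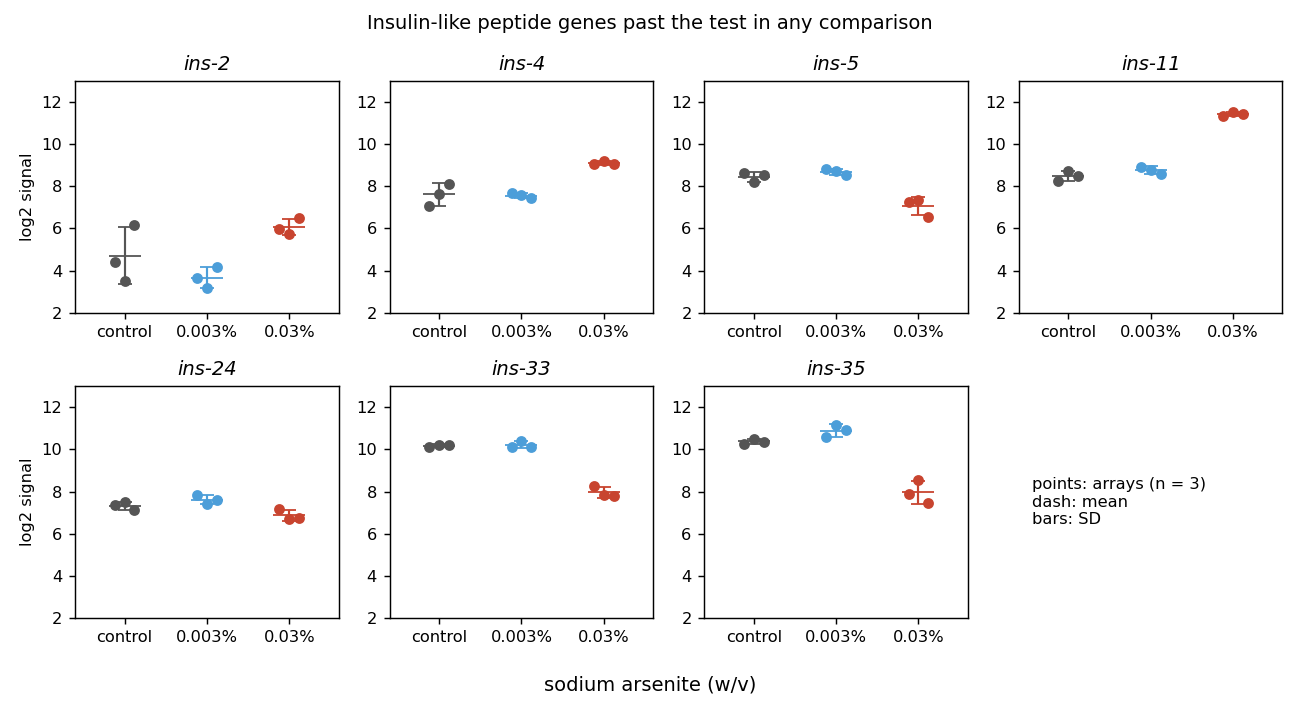
Log2 signal (y axis) of the 7 insulin-like genes that passed the test in any of the 3 comparisons, by arsenite group (x axis, w/v). Points are arrays, dashes means and bars SD (n = 3), and the 3 high dose arrays of ins-11 lie between 11.36 and 11.54, above all 6 others.

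The strongest increase in the family was that of ins-11, which encodes a peptide induced in the intestine by bacterial infection and linked to pathogen avoidance. Its signal was 8.27, 8.74 and 8.498 in the 3 control arrays, 8.94, 8.78 and 8.57 at the low dose, and 11.36, 11.54 and 11.41 at the high dose. The low dose arrays lay within or just above the control range, and the high dose arrays stood clear of both groups. The increase at the high dose was 7.66 fold (log2 fold change 2.94, SE 0.16, limma adjusted p = 2.51e-05). At the low dose the log2 fold change was 0.26 (95% interval -0.11 to 0.63, limma adjusted p = 0.597). The probeset of ins-11 is marked _s_at, which may also detect related transcripts, and its neighbour ins-12 was not analysed here.

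The gene ins-4 encodes an agonist of DAF-2 that acts beside DAF-28 and INS-6 in favour of reproductive growth. Its signal was 7.06, 7.66 and 8.12 in control arrays, 7.67, 7.58 and 7.43 at the low dose, and 9.08, 9.21 and 9.05 at the high dose. The control arrays were spread over more than 1 log2 unit, and even the highest of them lay below every high dose array. The increase at the high dose was 2.83 fold (log2 fold change 1.501, SE 0.25, limma adjusted p = 0.00490). At the low dose the log2 fold change was -0.06 (95% interval -0.64 to 0.53).

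The largest decrease was that of ins-35, an intestinal agonist whose product acts beside INS-7 in the choice between reproductive growth and dauer. Its signal was 10.27, 10.50 and 10.37 in control arrays, 10.57, 11.16 and 10.94 at the low dose, and 7.89, 8.53 and 7.46 at the high dose. The high dose arrays lay well below both other groups, and the low dose arrays all lay above the control arrays. The decrease at the high dose was 5.35 fold (log2 fold change -2.42, SE 0.28, limma adjusted p = 8.56e-04). The low dose difference of 0.51 (95% interval -0.14 to 1.16, limma adjusted p = 0.549) did not pass the test.

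The gene ins-33, which is expressed in the hypodermis under control of the heterochronic factor LIN-14 and with ins-3 favours germ line proliferation in larvae, also fell. Its signal was 10.12, 10.22 and 10.21 in control arrays, 10.13, 10.41 and 10.10 at the low dose, and 8.25, 7.84 and 7.77 at the high dose. Control and low dose arrays were intermingled, and the high dose arrays were lower than all of them. The decrease at the high dose was 4.69 fold (log2 fold change -2.23, SE 0.16, limma adjusted p = 8.97e-05). The low dose log2 fold change was 0.03 (95% interval -0.34 to 0.40).

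Some markers of the intestine and most markers of the hypodermis also fell at the high dose. Of 9 intestine markers measured, 4 fell and 0 rose at the high dose, where 11% of all genes fell. The log2 of their summed signal, in which the brightest probesets weigh most, ran from 17.64 to 17.71 in control arrays, 17.47 to 17.61 at the low dose and 16.75 to 16.87 at the high dose. The decreases were in act-5, cpr-1, mtl-2 and vha-6. Log2 fold changes were 0.72 for elt-2 and -0.29 for ges-1, which encode an intestinal GATA factor and an intestinal esterase. Neither passed the test (limma adjusted p = 0.0918 and 0.324). Of the rest, ifb-2, asp-1 and end-3 had log2 fold changes of 0.07, -0.13 and -1.13. These did not pass either (limma adjusted p = 0.739, 0.557 and 0.256). Of 7 hypodermis markers, 5 fell and 0 rose, and the log2 of their summed signal was 16.75 to 16.87 in control arrays, 16.81 to 16.88 at the low dose and 16.26 to 16.49 at the high dose. The cuticle collagen gene dpy-7 decreased by 1.47 and the GATA factor gene elt-3 by 0.62 on the log2 scale. Of 11 neuron markers, 0 fell and 1 rose, snb-1, and the log2 of the summed signal was 14.22 to 14.36 in control arrays, 14.35 to 14.65 at the low dose and 14.57 to 14.80 at the high dose. Of the other lists, 2 of 6 body wall muscle markers and 4 of 7 germ line markers fell, and of 6 pharynx markers 1 rose (pha-4) and 1 fell (ceh-22). Measured were 11 neuron, 9 intestine, 7 hypodermis, 6 body wall muscle, 7 germ line and 6 pharynx markers. Over these lists together, 18 markers passed at the high dose, where 20.0% of all genes did. Most of these markers lay above 8.52, the level that bounds the dimmer 50% of all genes. With the dimmer 50% left out, 44.9% of the genes kept passed at the high dose. The 20.0% is thus a share over many dimmer genes. Without control replicate 2, 11 of the markers passed, where 14.7% of all genes did. No tissue marker passed the test at the low dose. The lowest log2 signal of any marker on any array was 2.22, in the neuron list at the low dose. The part of these shifts in the values of ins-11, ins-33 and ins-35 was not tested.

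On chromosome II the genes ins-2, ins-3, ins-4, ins-5 and ins-6 follow each other in the RefSeq annotation with 0 other coding genes between them. Within this run the adjacent genes ins-4 and ins-5 changed in opposite directions at the high dose, ins-4 rising and ins-5 falling. The signal of ins-5 was 8.64, 8.20 and 8.53 in control arrays, 8.82, 8.71 and 8.52 at the low dose, and 7.26, 7.34 and 6.56 at the high dose. All high dose arrays lay below the other 6. The decrease was 2.65 fold (log2 fold change -1.41, SE 0.23, limma adjusted p = 0.00477), and the low dose log2 fold change was 0.23 (95% interval -0.31 to 0.77).

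**Figure D2:**
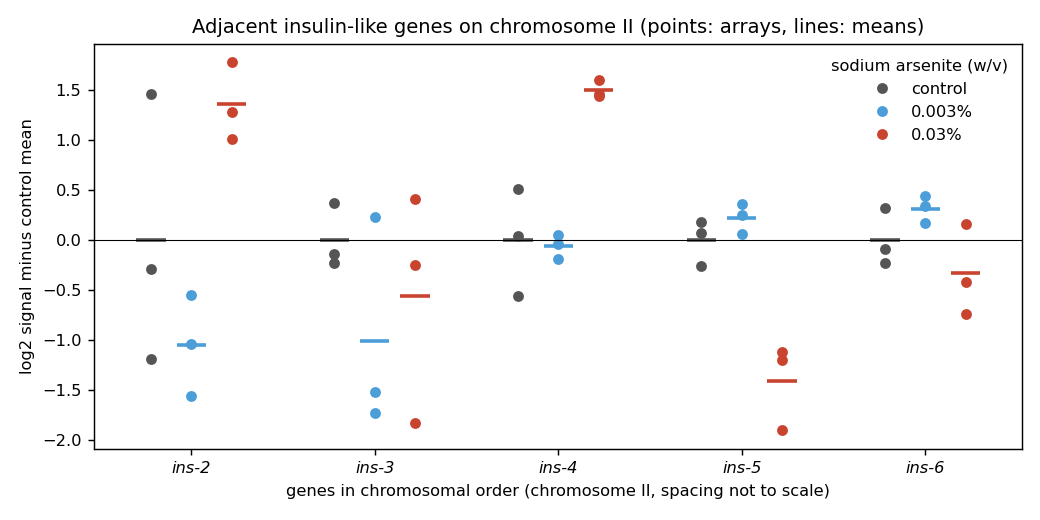
Log2 signal minus the control mean (y axis) for the 5 adjacent genes on chromosome II (x axis, in chromosomal order, not to scale), with arrays as points and means as lines. At the high dose ins-4 lies above 0 on all 3 arrays and ins-5 below 0 on all 3.

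The other genes of this run did not pass the test at either dose against control. The signal of ins-2 was 4.42, 3.52 and 6.17 in control arrays, 3.67, 3.15 and 4.16 at the low dose, and 5.99, 5.72 and 6.48 at the high dose. A single control array of ins-2 reached the high dose range, while the low dose and high dose arrays were apart. The high dose log2 fold change of ins-2 was 1.36 (95% interval -0.13 to 2.84, limma adjusted p = 0.195), and it passed the test when control replicate 3 was left out (log2 fold change 2.09, adjusted p = 0.0183). The germ line proliferation gene ins-3 was 6.32, 5.72 and 5.81 in control arrays, 6.18, 4.43 and 4.22 at the low dose, and 6.36, 5.70 and 4.12 at the high dose, and the groups overlapped. Levels of ins-6, an agonist that promotes exit from dauer, were 7.35, 7.77 and 7.21 in control arrays, 7.79, 7.61 and 7.88 at the low dose, and 7.60, 6.71 and 7.03 at the high dose. The ins-6 arrays overlapped between control and each dose, with a high dose log2 fold change of -0.33 (95% interval -0.91 to 0.25, limma adjusted p = 0.430), and ins-3 had one of -0.55 (95% interval -2.16 to 1.05).

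The agonist gene daf-28, expressed in sensory neurons, did not pass the test. Its signal was 7.92, 7.95 and 8.01 in control arrays, 8.45, 7.78 and 8.26 at the low dose, and 7.52, 7.64 and 7.91 at the high dose. The high dose arrays all lay below the control arrays, the nearest by less than 0.01. The high dose log2 fold change of daf-28 was -0.27 (95% interval -0.72 to 0.17, limma adjusted p = 0.395).

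The genes ins-7 and ins-32 did not pass the test against control either. The intestinal agonist ins-7, known to be repressed by DAF-16, was 6.24, 7.21 and 6.48 in control arrays, 6.74, 6.52 and 5.51 at the low dose, and 7.92, 7.62 and 6.73 at the high dose. Its high dose log2 fold change was 0.78 (95% interval -0.27 to 1.82, limma adjusted p = 0.293). Levels of ins-32, also described as an agonist, were 5.49, 6.55 and 6.28 in control arrays, 4.59, 3.83 and 4.07 at the low dose, and 4.45, 4.07 and 5.72 at the high dose. Every low dose array of ins-32 was below every control array. The log2 fold change was -1.94 at the low dose (95% interval -3.05 to -0.84, limma adjusted p = 0.134) and -1.36 at the high dose (95% interval -2.46 to -0.26, limma adjusted p = 0.0895). Without high dose replicate 3 the high dose decrease passed the test (log2 fold change -1.85, limma adjusted p = 0.0204).

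The antagonists ins-1, ins-17 and ins-18 did not pass the test in any comparison. The signal of ins-1, which takes part in learning, was 7.75, 7.79 and 7.94 in control arrays, 8.05, 7.70 and 7.88 at the low dose, and 7.82, 7.998 and 7.94 at the high dose. The groups overlapped, and its intervals were the narrowest of the family, from -0.25 to 0.35 at the low dose and from -0.20 to 0.39 at the high dose on the log2 scale. The signal of ins-18 was 8.69, 8.58 and 8.79 in control arrays, 8.73, 9.01 and 8.76 at the low dose, and 8.33, 8.99 and 9.11 at the high dose. These groups overlapped too, and the log2 fold change was 0.15 (95% interval -0.35 to 0.64) at the low dose and 0.13 (95% interval -0.37 to 0.62) at the high dose. The signal of ins-17 was 9.37, 9.64 and 9.498 in control arrays, 9.19, 9.87 and 9.76 at the low dose, and 9.91, 10.16 and 9.26 at the high dose. Its groups overlapped as well, with a log2 fold change of 0.10 (95% interval -0.52 to 0.73) at the low and 0.27 (95% interval -0.35 to 0.90) at the high dose. Changes beyond 2 fold lay outside all 6 of these intervals.

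**Figure D3:**
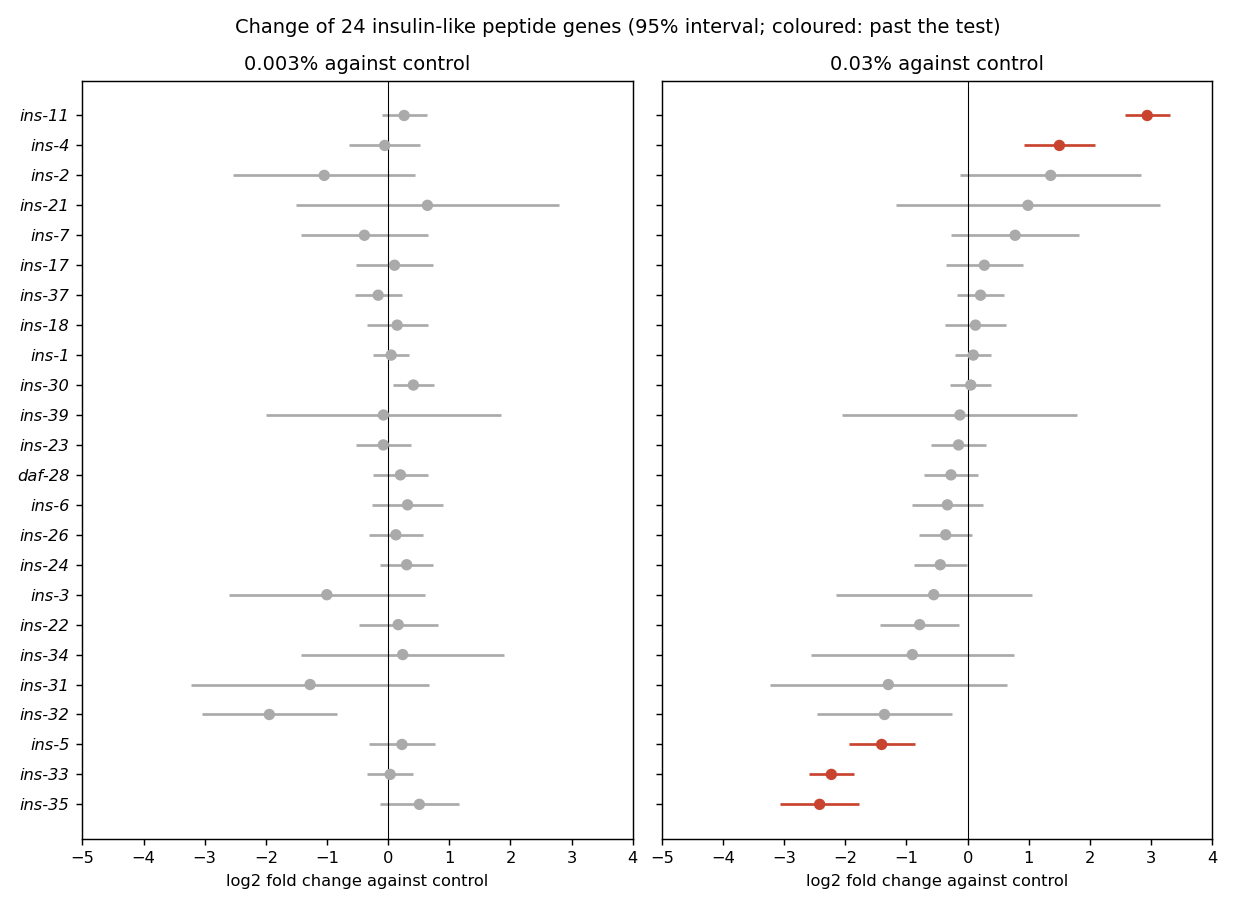
Log2 fold change against control (x axis) of the 24 insulin-like genes (y axis, ordered by the high dose) at 0.003% (left) and 0.03% (right), with 95% intervals from limma. Coloured genes passed the test, which were 5 on the right and 0 on the left.

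None of the remaining 10 members passed the test against control. INS-22, widely used as a tagged marker of dense-core vesicles in neurons, had a gene signal of 8.19, 7.81 and 7.15 in control arrays, 7.59, 8.01 and 8.05 at the low dose, and 6.94, 6.72 and 7.14 at the high dose. The groups at the high dose and in control did not overlap, but their nearest arrays lay at 7.14 and 7.15. The log2 fold change of ins-22 was -0.78 (95% interval -1.43 to -0.14, limma adjusted p = 0.0941). This difference passed the test without control replicate 3 (-1.07, limma adjusted p = 0.0225). The log2 fold change of ins-24 against control was -0.45 (95% interval -0.88 to -0.02, limma adjusted p = 0.146). For ins-26 the high dose log2 fold change was -0.36 (95% interval -0.80 to 0.08), and it passed without high dose replicate 1 (-0.57, limma adjusted p = 0.0368). The genes ins-21, ins-22 and ins-23 form another run without other coding genes on chromosome III, and ins-24, ins-30 and ins-26 one on chromosome I, and 0 of these 6 genes passed the test against control. The signal of ins-26 ranged from 7.89 to 8.20 in control arrays, 8.15 to 8.22 at the low dose and 7.44 to 8.11 at the high dose. The ranges of ins-23 were 7.02 to 7.51, 7.11 to 7.41 and 6.92 to 7.46 in the same order, and those of ins-37 were 9.32 to 9.57, 9.13 to 9.43 and 9.41 to 9.94, so the groups overlapped for both genes. For ins-23 and ins-37 the intervals at both doses lay within -0.60 and 0.60 on the log2 scale. In all, the high dose and control arrays did not overlap for 7 members (29.2%, against 38.4% of all genes), 2 of them higher (8.33%, against 16.7%) and 5 lower (20.8%, against 21.7%).

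The dimmest members, with ins-39, had the widest intervals. The 6 members ins-2, ins-3, ins-21, ins-31, ins-32 and ins-34 were in the dimmest 25% of all genes, with a pooled SD within groups of 0.63 to 1.25. The pooled SD of the other 18 ranged from 0.13 to 1.12, the highest being that of ins-39. For ins-3, ins-21, ins-31, ins-34 and ins-39 the 95% intervals at the high dose spanned more than 3 log2 units. The interval ran from -1.17 to 3.14 for ins-21, from -3.24 to 0.64 for ins-31, from -2.56 to 0.76 for ins-34 and from -2.05 to 1.79 for ins-39. The arrays of ins-21 ranged from 3.22 to 5.92 in control, 4.35 to 6.25 at the low dose and 5.00 to 7.19 at the high dose, and those of ins-31 from 4.34 to 6.21, 2.72 to 4.39 and 2.21 to 4.65. The arrays of ins-34 ranged from 5.76 to 6.36, 5.68 to 6.79 and 3.67 to 6.70, and those of ins-39 from 5.95 to 7.54, 5.27 to 7.50 and 5.08 to 7.57. The groups overlapped against control for each of these 4 genes. For ins-34 a decrease passed the test without high dose replicate 3 (log2 fold change -1.73, limma adjusted p = 0.0497).

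At the low dose, ins-30 and ins-32 had an unadjusted p under 0.05 (8.33% of members, against 11.7% of all genes). The signal of ins-30 was 9.69, 9.59 and 9.41 in control arrays, 10.08, 10.04 and 9.81 at the low dose, and 9.80, 9.61 and 9.44 at the high dose. Its low dose arrays lay above the control arrays, while its high dose arrays overlapped them. The low dose log2 fold change of ins-30 was 0.41 (95% interval 0.08 to 0.75, limma adjusted p = 0.312), and at the high dose it was 0.05 (95% interval -0.28 to 0.39). With ins-35 (higher) and ins-32 (lower), 3 members had low dose arrays apart from the control arrays (12.5%, against 18.2% of all genes), 2 of them higher (8.33%, against 8.62%) and 1 lower (4.17%, against 9.59%).

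Between the doses 7 members differed, 3 higher (ins-11, ins-4 and ins-2) and 4 lower (ins-35, ins-33, ins-5 and ins-24) at the high dose. These are 29.2% of the members, against 16.8% of all genes. By direction, 12.5% of the members were higher, against 7.34% of all genes, and 16.7% lower, against 9.49%. An unadjusted p under 0.05 was found for 13 members (54.2%, against 28.8%). The difference was 2.68 (SE 0.16, adjusted p = 8.22e-05) for ins-11, 1.56 (SE 0.25, adjusted p = 0.00501) for ins-4, -1.63 (SE 0.23, adjusted p = 0.00299) for ins-5, -2.26 (SE 0.16, adjusted p = 1.54e-04) for ins-33 and -2.93 (SE 0.28, adjusted p = 5.32e-04) for ins-35, on the log2 scale from limma. These differences use the same arrays as the comparisons of each dose with control. Arrays of the 2 doses did not overlap for 11 members (45.8%, against 34.0% of all genes), 3 of them higher (12.5%, against 15.8%) and 8 lower (33.3%, against 18.2%) at the high dose.

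The calls of ins-2 and ins-24 between the doses depended on single arrays and on the fit. For ins-2 the difference was 2.40 (SE 0.64, limma adjusted p = 0.0399), and it failed the test without control replicate 1 or without any 1 of the low dose or high dose arrays (adjusted p = 0.0637 to 0.117), and also with all arrays when the variance was not moderated, as in the methods' test (adjusted p = 0.0709). The signal of ins-24 was 7.36, 7.49 and 7.10 in control arrays, 7.84, 7.43 and 7.58 at the low dose, and 7.17, 6.70 and 6.73 at the high dose. High minus low dose, ins-24 stood at -0.75 (SE 0.19, limma adjusted p = 0.0309), and it failed without control replicate 1, low dose replicate 1 or 3, or high dose replicate 2 or 3 (adjusted p = 0.0538 to 0.0996), and also with all arrays under a variance trend (adjusted p = 0.104) or with only the 2 doses fitted (adjusted p = 0.0689). A second, dimmer probeset of ins-24 differed the other way, from a mean of 3.41 at the low dose to 5.90 at the high dose (difference 2.49, SE 1.03, limma adjusted p = 0.162 over all probesets). With the probesets averaged, ins-24 also changed sign against control, to a high dose value of 0.34 and a low dose value of -0.53, without a call. The probeset used is marked _s_at and the dimmer one is not. Of the members not called between the doses, ins-22 lay just outside the threshold (difference -0.95, adjusted p = 0.0568), daf-28 passed without low dose replicate 2 (-0.67, adjusted p = 0.0351), and ins-6 and ins-26 passed without high dose replicate 1 (-0.89 and -0.69, limma adjusted p = 0.0398 and 0.0216). The difference of ins-22 passed without control replicate 1 or 3 (adjusted p = 0.0417 and 0.0233), and with all arrays under a variance trend (adjusted p = 0.0417), without the dimmest 25% of genes (0.0277), after quantile normalization (0.0494) and with only the 2 doses fitted (0.0349). A further difference that passed was that of ins-34 without high dose replicate 3 (-1.96, limma adjusted p = 0.0371). That of ins-30 passed without the dimmer 50% of genes (-0.36, limma adjusted p = 0.0488).

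Downstream of the peptides, 2 of 13 genes of the receptor and its cascade rose and 0 fell at the high dose, against 20.0% of all genes called. Their median log2 fold change was -0.10, against -0.05 over all genes, and none passed at the low dose. Most genes of this list and of the release and DAF-16 lists below lay above 8.52, which bounds the dimmer 50%. The shares over all genes set beside them include many dimmer genes. The phosphoinositide 3-kinase adaptor gene aap-1 was 10.08, 9.77 and 10.35 in control arrays, 10.08, 9.98 and 10.01 at the low dose, and 10.93, 11.20 and 11.14 at the high dose. For aap-1 this is a log2 fold change of 1.03 (SE 0.16, limma adjusted p = 0.00394), and the kinase gene akt-2 had one of 0.84 (SE 0.15, limma adjusted p = 0.00710). The gene of the FOXO factor itself, daf-16, had a log2 fold change of -0.10 (95% interval -0.52 to 0.33) at the high dose. The receptor gene daf-2 was 4.70, 7.40 and 7.78 in control arrays and 7.15 to 8.38 at the high dose, and control replicate 1 stood far below the other 8 (log2 fold change 1.27, 95% interval -0.54 to 3.07). The probesets of aap-1, daf-16 and daf-2 are marked _s_at or _x_at.

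Genes that mature and release peptides moved in both directions. Of 16 such genes, 3 rose and 2 fell at the high dose, against 9.0% and 11% of all genes, and 0 passed at the low dose, with medians of 0.15 and 0.12. The furin-like proprotein convertase gene kpc-1 rose (log2 fold change 1.29, SE 0.29, limma adjusted p = 0.0179), as did snb-1, which encodes synaptobrevin of the vesicle membrane (0.69, SE 0.12), and asna-1, an ATPase gene that promotes insulin secretion (0.50, SE 0.11). The convertase gene aex-5 decreased by 0.77 (SE 0.13) and unc-18, whose product binds syntaxin, by 1.06 (SE 0.13) on the log2 scale. The neuropeptide convertase gene egl-3 had a log2 fold change of 0.28 (95% interval -0.02 to 0.59), which did not pass. The interval of unc-31, which encodes a factor for dense-core vesicle release, ran from -3.29 to 2.52. Of these genes, 5 (egl-3, ida-1, ric-4, snb-1 and unc-31) are also in the neuron list.

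Genes widely used to report DAF-16 activity were split as well. Of 11, 4 rose and 3 fell at the high dose (9.0% and 11% of all genes), and 1 rose and 1 fell at the low dose (1.05% and 0.508% of all genes), with medians of 0.06 and -0.05. The ferritin gene ftn-1 rose by 6.13 (SE 0.12) at the high and by 2.58 (SE 0.12) at the low dose on the log2 scale, and dod-3, hil-1 and icl-1 rose at the high dose (1.75, 1.36 and 0.53). The metallothionein gene mtl-1 decreased by 2.50 at the high and by 2.44 at the low dose on the log2 scale, and the catalase gene ctl-2 and the glycolytic gene gpd-2 fell at the high dose by 1.07 and 0.45. The superoxide dismutase gene sod-3 had a log2 fold change of -0.41 (95% interval -1.14 to 0.31) at the high dose. These genes have other regulators too, and several were known to change in these data when the list was written.

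**Figure D4:**
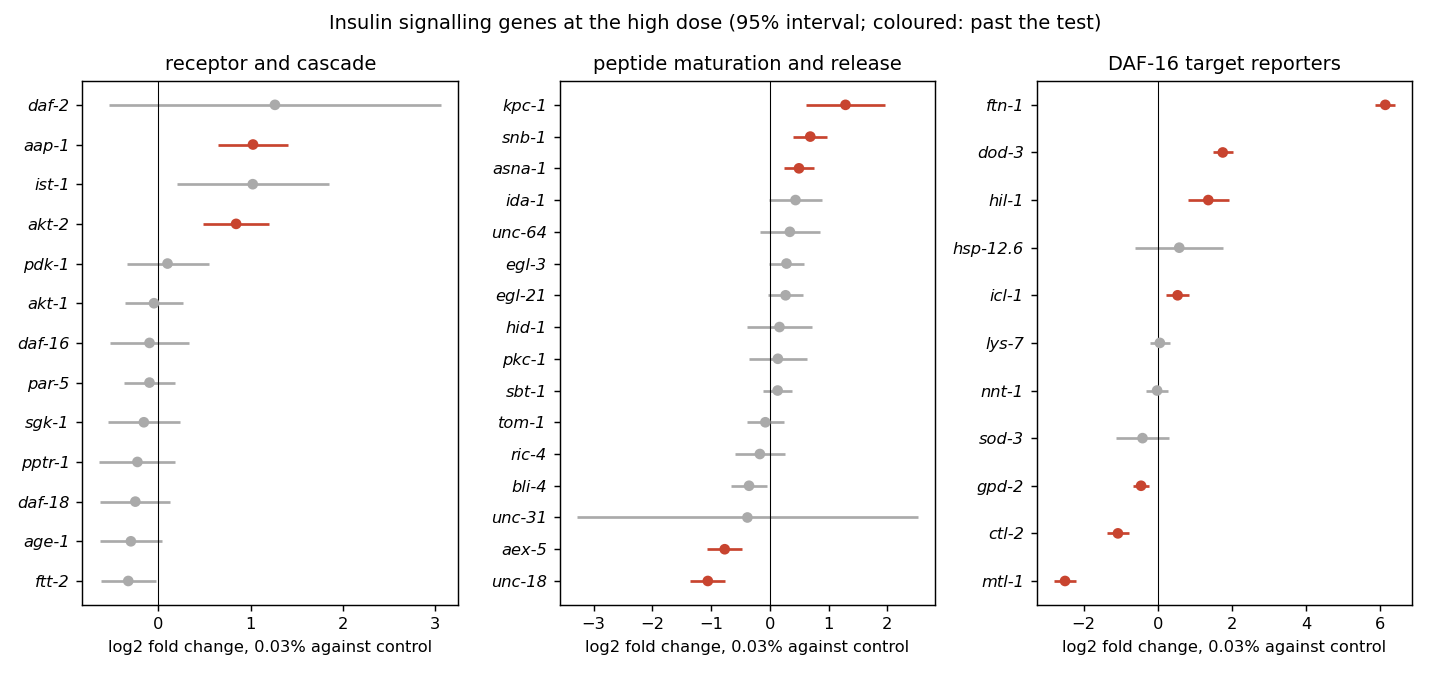
Log2 fold change at 0.03% against control (x axis) with 95% intervals from limma for 13 receptor and cascade genes, 16 peptide maturation and release genes and 11 DAF-16 target reporters (y axes). Coloured genes passed the test, 2, 5 and 7 of the lists in this order.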

How the data were processed

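The deposited values are log2 signals that the authors had summarized for every probeset of the Affymetrix C. elegans arrays. The submitters' processing notes name Partek 6.4 and MAS5 and the methods name RMA in a later Partek version, so the summarization behind these values is not settled. Among the log2 values of all probesets, 41 lay below 0. The median pooled SD within groups was 1.09 for the dimmest 25% of genes and 0.21 for the others. No scaling was added. The array holds 22625 probesets, and 77 controls, 895 with no gene and 887 with several genes were not tested. Following the methods, a gene with several probesets was represented by the brightest on average, giving 17118 genes. Gene names came from the platform annotation, updated through the RefSeq table of assembly WBcel235, which was also used for gene order. The 3 groups were fitted in 1 model with limma 3.58.1 in R 4.3.3 (lmFit, eBayes, 6 residual and 1.45 prior degrees of freedom), with Benjamini-Hochberg adjustment over all genes in each comparison and intervals from the moderated fit. The fit was tested on simulated data. Plots used matplotlib 3.10.9 and Python 3.11.15.

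The members, gene lists and tests were chosen with earlier results of these data known. Every member was eligible to be named, with arrays given for those called in any comparison, for the agonists daf-28, ins-3, ins-4, ins-6, ins-7, ins-32, ins-33 and ins-35 and the antagonists ins-1, ins-17 and ins-18, and, chosen after their values were seen, for ins-22 and ins-30. The markers elt-2, ges-1, ifb-2, asp-1, end-3 and sod-3, which were not called, were named after their values were seen. Of the marker lists, rab-27, opt-2 and dpy-10 had no probeset matched by these names. The alternatives were no moderation (the methods' ANOVA), a variance trend with robust estimation, other fold thresholds, leaving out dim genes, quantile normalization, median centring, other uses of probesets, only the compared groups, a block on the replicate number, and fits without each array. Peptide and promoter sequences were not used here.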

Additional observations from a re-analysis of the deposited data

Results flagged for a closer look

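The effects of the 2 doses differed by the test of their difference in 7 members (limma, adjusted p of at most 0.05). These are 29.2% of the members, where 16.8% of all genes differed. On the log2 scale, high minus low dose, the difference was 2.68 for ins-11, 2.40 for ins-2 and 1.56 for ins-4, and it was -0.75 for ins-24, -1.63 for ins-5, -2.26 for ins-33 and -2.93 for ins-35. Of these, ins-2 and ins-24 passed the test at neither dose against control. Their calls between the doses depended on single arrays and on the fit, and the dimmer probeset of ins-24 differed the other way. With 3 arrays a group, single arrays far from the others were not looked for by a test.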

How the results depend on the processing

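The 22 alternatives kept the direction of ins-11, ins-33, ins-35, ins-4 and ins-5 at the high dose. The first 3 passed in all 22, with adjusted p up to 6.37e-04, 0.00151 and 0.00547. Among the brighter 50% of genes, ins-4 and ins-5 were not present. They passed in 20 of the other 21 (adjusted p up to 0.0219 and 0.0216), the exception being 1.5 fold with an unadjusted p below 0.0001. Under that rule 1 member was up at the high dose, and between the doses 1 was higher and 2 were lower. In these comparisons 5 and 3 pathway genes and 6 and 6 tissue markers were called, against 5.81% and 4.40% of all genes. Without the dimmer 50% of genes, 1 member was up at the high dose and 1 higher between the doses. Of the genes kept, 44.9% and 39.0% were called in these comparisons. There 1 tissue marker passed at the low dose (6.23% of the genes kept), as with the variance trend (3.18% of all genes). The trend called 23 tissue markers between the doses, where it called 21.4% of all genes. Fitting only the compared groups called 8 pathway genes there, against 12.4% of all genes. With each array left out, 2 to 3 members were up and 3 to 5 down at the high dose (5 without high dose replicate 3). Between the doses 2 to 3 were higher and 3 to 6 lower. In these fits 14.7% to 19.7% of all genes were called at the high dose and 12.2% to 14.8% between the doses. Tissue markers called at the high dose ranged from 11 to 19 (11 without control replicate 2). No alternative called a member at the low dose. The difference of ins-24 between the doses reversed to 0.87 (adjusted p = 0.319) when its probesets were averaged. By construction the dimmer probeset, which differed the other way, then counts equally. Of 1515 member results under alternatives, 16 gained the call, 21 lost it, 1 called result reversed and 1477 kept their side of the threshold. Sign changes of results without a call are not counted as reversed. Same-numbered arrays did not deviate together (correlations -0.03 to 0.03, 4 of 9 arrays correlating best with their own number). With the replicate block 2 members were up and 3 down at the high dose, 0 passed at the low dose, and 3 were higher and 4 lower between the doses. The block fit called 16.6% of all genes at the high dose, 0.935% at the low dose and 13.7% between the doses. Neither scaling moved the median of all genes by more than 0.1.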

Other observations

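The irld genes encode proteins with domains related to the ligand-binding part of insulin receptors. Of 56 measured, a group chosen with results of these data known, 1 rose (irld-40, log2 fold change 0.68, SE 0.18, limma adjusted p = 0.0338) and 1 fell (irld-65, log2 fold change -2.68, SE 0.63, limma adjusted p = 0.0223) at the high dose, against 20.0% of all genes called. At the low dose 0 passed the test, although irld-40 had nearly the same change there (log2 fold change 0.68, limma adjusted p = 0.164). Most irld genes were dim, below the level of 6.26 that bounds the dimmest 25% of all genes. The 20.0% is thus a share over mostly brighter genes. The arrays of irld-65 ranged from 2.93 to 6.48 and those of irld-17 from 2.70 to 5.43. Between the doses irld-17 differed by 1.85 (SE 0.49, limma adjusted p = 0.0394), from a mean of 3.24 at the low dose to 5.10 at the high dose.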
